A study of Mus musculus with 6 samples.

Results

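Amino acid and peptide transporters of the mouse colon epithelial fraction were compared between Lingo2-/- and wild type mice. Members were chosen by name, as genes of the solute carrier families Slc1, Slc3, Slc6, Slc7, Slc15, Slc36, Slc38 and Slc43 that appear in the authors' deposited comparison. This gave 41 genes of 46078 gene rows in the count table, and all 41 were among the 16757 genes tested. Of these, 40 are carriers or their heavy chains. The remaining one, Slc7a6os, was matched by its name and is a neighbour of Slc7a6 on the opposite strand. A further 31 genes with names of these families were in the count table but not in the authors' comparison. The smallest mean normalized signal in that comparison was 17.8 reads. Among the 31, Slc36a1os, Slc36a3os and Slc6a19os were matched by name only, as Slc7a6os was. Of the 31, 5 had no read and 2, Slc7a2 and Slc15a3, passed the filter on low counts.

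The fraction holds the cells released from the colon when it is washed with EDTA and DTT. RNA was taken within 1 h of harvest, from mice aged 2 months kept without challenge. There were 3 wild type and 3 Lingo2-/- libraries. The labels do not describe the deleted part of Lingo2, the strain, or whether each library came from a separate animal, so the spread that p-values rest on may be technical. Wild type libraries held 25010618 to 28029583 reads on genes and Lingo2-/- libraries 7060769 to 13047682, and a count of 0 allows up to 0.112 to 0.138 and 0.207 to 0.374 CPM. CPM is the read count scaled to library size, here with TMM factors. Lingo2 had 0, 7 and 0 reads in wild type and 1, 1 and 0 in Lingo2-/- libraries, so its reads do not check the labels. Epithelial markers were abundant in both genotypes, with 11 genes summing to 4327 to 5252 CPM in wild type and 4307 to 5185 CPM in Lingo2-/- libraries, and none passed the edgeR test (smallest p for Krt20, −0.30 on the log2 scale, edgeR adjusted p = 0.214).

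Epithelial cells take up amino acids and short peptides from the lumen through carriers of the apical membrane, and release amino acids to the blood through exchangers and uniporters of the basolateral membrane. Apical uptake is driven by gradients of sodium, chloride or protons, and intact di- and tripeptides enter by proton-coupled carriers of the Slc15 family. Several exchangers of the Slc7 family are light chains that reach the membrane only when bound to a heavy chain of the Slc3 family. The colon absorbs fewer dietary amino acids than the small intestine.

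Slc15a2, a high-affinity proton-coupled peptide carrier, was about 10.7-fold lower in Lingo2-/- libraries, while 3 carriers of neutral amino acids, Slc1a5, Slc1a4 and Slc6a7, were 1.35-fold, 1.49-fold and 1.55-fold higher. These 4 of 41 members passed the quasi-likelihood test of edgeR (p adjusted by Benjamini-Hochberg, threshold 0.05), a share of 9.76%, where 2.57% of all tested genes did. The members were limited to genes in the authors' comparison, whereas the tested genes include others, so shares of members and of tested genes rest on unlike sets. By direction, 1.04% of all tested genes were higher and 1.52% were lower. The other 37 members had edgeR adjusted p-values of 0.0503 to 0.992. The median log2 fold change of the members was 0.08, and that of all tested genes was 0.00. Of the members 21 lay above 0 and 20 below, 32 lay within 0.5 of 0 on the log2 scale, and 2, Slc15a2 and Slc6a19, were beyond 2-fold. The 2 genotypes did not overlap in CPM for 16 members, 12 of them higher in Lingo2-/- libraries, a share of 39% where 24.1% of all tested genes did not overlap. In the authors' deposited table, 4.71% of 14338 genes and 6 of 41 members had an adjusted p under 0.05. The 6 were the same 4 with Slc38a9 and Slc6a19.

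**Figure D1:**
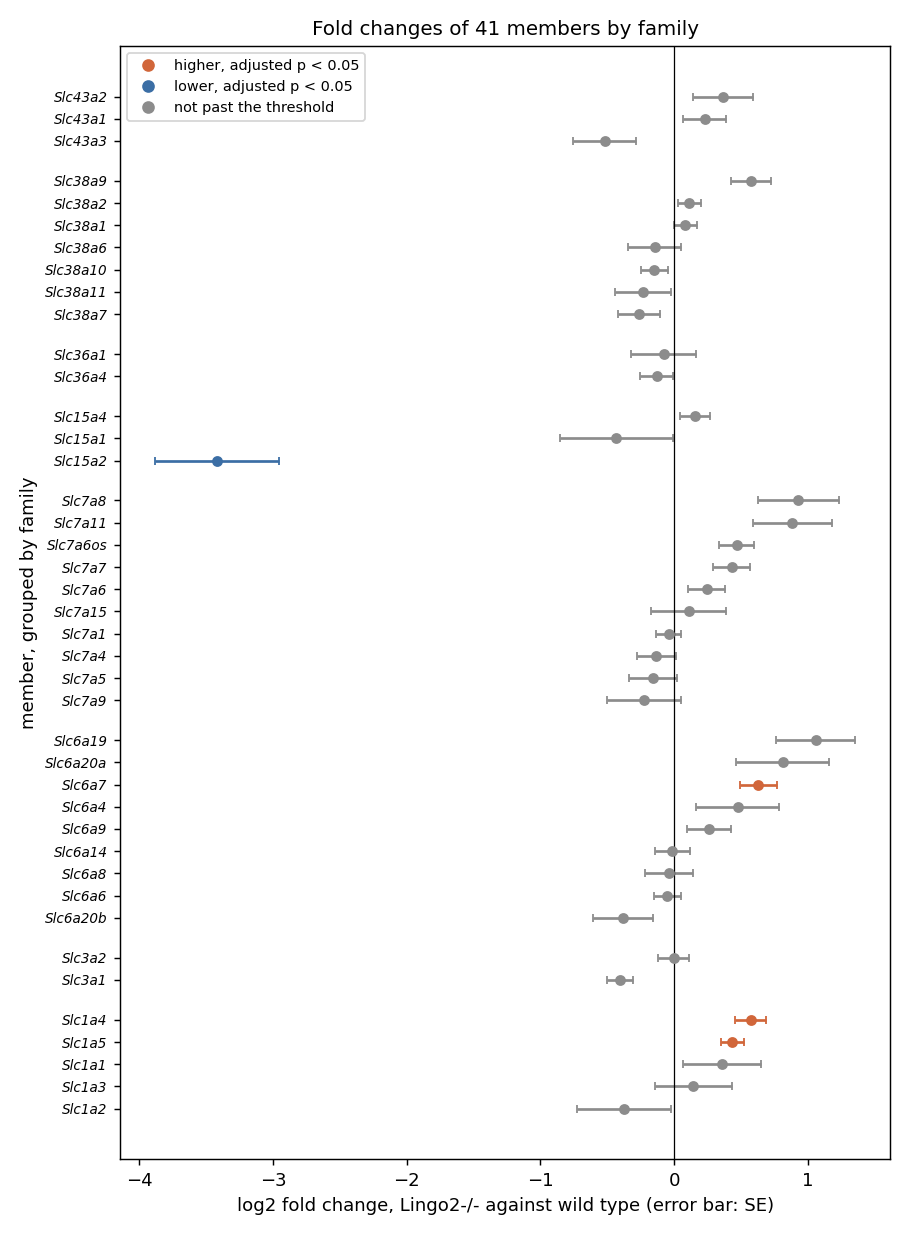
Log2 fold change (Lingo2-/- against wild type, horizontal axis) of each of the 41 members, grouped by family, with its standard error as a bar. Slc15a2 lies at −3.42, far from all others, and the 3 higher genes past the threshold are Slc1a4, Slc1a5 and Slc6a7.

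The peptide carriers were examined first. Slc15a2 (PEPT2, chromosome 16, 36750177 to 36784962, minus strand, GRCm38), best known for recovering peptides from the filtrate of the kidney, had 319, 546 and 608 reads in wild type 1, 2 and 3. In Lingo2-/- 1, 2 and 3 it had 41, 3 and 17 reads. On the CPM scale these were 14.7, 20.4 and 25.9 against 2.83, 0.374 and 1.97. Every wild type library was above every Lingo2-/- library. The wild type mean was 20.3 ± 5.61 CPM and the Lingo2-/- mean 1.72 ± 1.24 CPM (SD, n = 3 each). The log2 fold change was −3.42 ± 0.46 (SE, edgeR adjusted p = 0.0219), or 10.7-fold lower with 7.75 to 14.7 spanned by 1 SE. Pooled by genotype, the level was 20.4 CPM (95% exact Poisson interval 19.4 to 21.5) and 1.96 CPM (1.497 to 2.51). These intervals and the limits for a count of 0 cover counting error only. Lingo2-/- 2, with 3 reads, stood at 0.374 CPM (interval 0.0771 to 1.09), which is also the most that a count of 0 allows there. Leaving out 1 library at a time kept the log2 fold change between −4.09 and −3.05, but the edgeR adjusted p rose to 0.0673 without wild type 2 and 0.127 without Lingo2-/- 3.

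Slc15a1 (PEPT1), the low-affinity, high-capacity peptide carrier of the intestinal brush border, stood at 240.5, 83.9 and 136.9 CPM in wild type and 110.4, 97.2 and 134.5 CPM in Lingo2-/- libraries. The genotypes overlapped, and wild type 1 stood well above the other 5 libraries. The log2 fold change was −0.43 ± 0.42 (SE, edgeR adjusted p = 0.646), and it was 0.045 without wild type 1. The ratio of Slc15a1 to Slc15a2, in CPM per kb of exon, was 24.7, 6.21 and 7.97 in wild type and 58.8, 392 and 103 in Lingo2-/- libraries. Slc15a1 was thus the higher of the pair in every library, and the ratio was higher in each Lingo2-/- library than in any wild type library. The ratio of 392, in Lingo2-/- 2, rests on 3 reads of Slc15a2.

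Slc15a4, which carries histidine and peptides out of endolysosomes, stood at 15.6, 17.4 and 17.5 CPM in wild type and 20.9, 17.8 and 17.4 CPM in Lingo2-/- libraries. The genotypes overlapped (0.16 ± 0.11 on the log2 scale, SE, edgeR adjusted p = 0.483). Slc15a4 overlaps Glt1d1 on the opposite strand, which rose (0.74, edgeR adjusted p = 0.0137), and the strand setting of the counting is not given in the sources used here. Slc15a3, the related lysosomal carrier, is outside the members and had 49 reads in all wild type and 21 in all Lingo2-/- libraries (0.02 ± 0.44, SE, edgeR adjusted p = 0.986). Slc15a5 had 4 and 0 reads and was not tested. Among peptide carriers of other families, 0 of 4 tested genes passed edgeR's test, while 3 of the 4 had an effect below 0 with a median log2 fold change of −0.06. The smallest p in that list belonged to Tap2, a subunit of the peptide pump that loads class I molecules, at 19.2 ± 1.73 and 15.4 ± 1.71 CPM (SD, n = 3; a log2 difference of −0.33 ± 0.12, SE, edgeR adjusted p = 0.179).

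**Figure D2:**
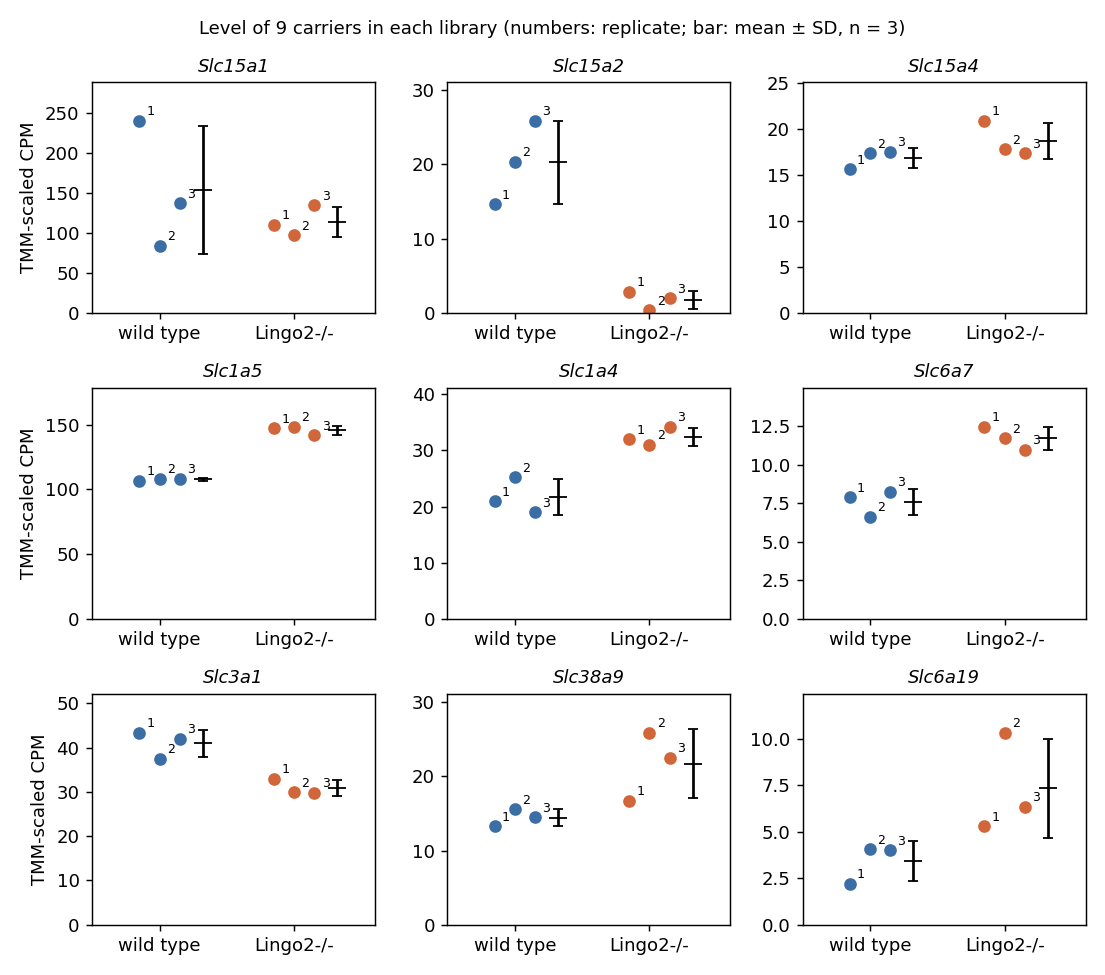
TMM-scaled CPM (vertical axes from 0) of 9 carriers in each library, with wild type in blue and Lingo2-/- in orange, replicate numbers beside the points and mean ± SD as bars. Slc15a2 drops to 0.374 to 2.83 CPM in Lingo2-/- libraries, whereas Slc15a1 overlaps and has wild type 1 far above the rest.

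Within 500 kb of Slc15a2 there were 10 other tested genes, and 1 of them passed edgeR's test. This was Hcls1, an actin-binding protein of blood cells, with mean levels of 10.5 and 5.26 CPM (log2 fold change −0.97 ± 0.19, SE, edgeR adjusted p = 0.0195). The nearest genes on either side were Ildr1 (0.05 ± 0.10, SE, edgeR adjusted p = 0.818) and Eaf2 (−0.25 ± 0.43, SE, edgeR adjusted p = 0.792). Around Slc1a5, Slc1a4 and Slc6a7 the same window held 18, 8 and 17 other tested genes, of which 1, 0 and 0 passed.

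The promoters of the paired peptide carriers and of 2 carriers with amino acid response elements are printed from the RefSeq promoter table (GRCm38.p6, 250 bases before to 50 after the start). They show how unlike the 2 peptide carriers are in base composition and where the response elements lie. The table held promoters for 33 of the 41 members, and the other 8 were not examined. The amino acid response element, at which ATF4 acts when amino acids are short, was searched as TGATGNAA on both strands and the TATA box as TATAAA on both strands. No member promoter held both patterns, and capitals mark the response element.

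Slc15a1, chr14:121505205-121505504, minus strand: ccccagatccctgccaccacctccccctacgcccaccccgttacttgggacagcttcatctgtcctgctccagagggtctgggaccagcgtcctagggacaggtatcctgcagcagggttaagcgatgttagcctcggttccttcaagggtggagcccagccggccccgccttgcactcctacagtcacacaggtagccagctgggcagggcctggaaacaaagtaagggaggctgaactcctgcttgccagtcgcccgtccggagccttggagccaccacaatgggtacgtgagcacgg
Slc15a2, chr16:36784913-36785212, minus strand: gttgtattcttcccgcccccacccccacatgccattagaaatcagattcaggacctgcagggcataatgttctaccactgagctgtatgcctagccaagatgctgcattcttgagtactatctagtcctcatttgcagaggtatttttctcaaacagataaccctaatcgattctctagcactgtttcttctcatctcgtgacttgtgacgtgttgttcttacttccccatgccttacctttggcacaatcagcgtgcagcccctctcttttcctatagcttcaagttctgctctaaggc
Slc1a4, chr11:20332664-20332963, minus strand: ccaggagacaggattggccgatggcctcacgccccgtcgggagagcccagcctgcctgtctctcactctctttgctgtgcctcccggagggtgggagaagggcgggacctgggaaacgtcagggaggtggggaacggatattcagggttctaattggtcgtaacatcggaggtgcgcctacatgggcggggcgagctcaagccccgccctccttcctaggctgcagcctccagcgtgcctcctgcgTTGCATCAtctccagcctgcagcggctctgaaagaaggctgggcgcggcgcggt
Slc7a11, chr3:50443564-50443863, minus strand: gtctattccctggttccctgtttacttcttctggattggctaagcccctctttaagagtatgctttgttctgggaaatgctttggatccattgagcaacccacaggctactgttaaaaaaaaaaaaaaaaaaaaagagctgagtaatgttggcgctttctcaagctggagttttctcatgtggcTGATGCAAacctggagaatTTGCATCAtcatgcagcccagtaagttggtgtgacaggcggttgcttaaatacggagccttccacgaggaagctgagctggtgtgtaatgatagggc

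The Slc15a1 window was 62.7% G or C with 12 CG pairs, and that of Slc15a2 46.3% with 5, where the medians of all promoters were 52.7% and 7. Neither held either pattern. The response element occurred in 3.97% of 32851 promoters and in 4 of 44 member promoters, which belong to 3 members, Slc1a4, Slc7a11 and Slc7a7. In Slc1a4 it began at −4 from the start on the minus strand, and in Slc7a11 at −66 on the plus and −47 on the minus strand of the gene. The TATA box occurred in 13.6% of all promoters and in 5 of the 44. A match is a match of letters only.

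Slc1 holds carriers of neutral amino acids and of glutamate. Both neutral carriers rose. Slc1a5 (ASCT2, chromosome 7, 16781340 to 16798274, plus strand), a sodium-coupled exchanger best known for glutamine, stood at 106.5, 108.2 and 108.1 CPM in wild type and 147.1, 148.4 and 141.7 CPM in Lingo2-/- libraries. The libraries of each genotype lay close together and the genotypes did not overlap. The means were 107.6 ± 0.947 and 145.7 ± 3.55 CPM (SD, n = 3), with a log2 fold change of 0.44 ± 0.08 (SE, edgeR adjusted p = 0.0182). Without 1 library at a time the log2 fold change stayed between 0.42 and 0.45, and the edgeR adjusted p ranged from 0.0356 to 0.0885, above the threshold without each of the 3 Lingo2-/- libraries.

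Slc1a4 (ASCT1, chromosome 11, 20302180 to 20332713, minus strand), which exchanges alanine, serine and cysteine, stood at 20.9, 25.2 and 19.0 CPM in wild type and 31.99, 31.03 and 34.2 CPM in Lingo2-/- libraries. The genotypes did not overlap (log2 difference 0.57 ± 0.12, SE, edgeR adjusted p = 0.0224). The edgeR adjusted p was 0.0127 to 0.0977 with 1 library left out, and passed the threshold in 2 of 6 cases, those without wild type 2 or wild type 3. The sum of Slc1a4 and Slc1a5 was 127 to 133 CPM in wild type and 176 to 179 CPM in Lingo2-/- libraries. The 3 tested glutamate carriers were low and none passed. Slc1a1, the epithelial glutamate carrier, had 8.003, 4.29 and 4.09 CPM in wild type and 6.27, 5.61 and 9.14 CPM in Lingo2-/- libraries (0.36 ± 0.29, SE, edgeR adjusted p = 0.548). Slc1a2 and Slc1a3, known from glia, stayed at 2.499 CPM or less in every library.

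In Slc6, 1 of 9 members rose. Slc6a7 (PROT), a sodium- and chloride-coupled proline carrier known from the brain, stood at 7.91, 6.64 and 8.26 CPM in wild type and 12.5, 11.7 and 10.99 CPM in Lingo2-/- libraries. The genotypes did not overlap, and the log2 fold change was 0.63 ± 0.14 (SE, edgeR adjusted p = 0.0369). With 1 library left out it lay between 0.54 and 0.70, and the edgeR adjusted p was 0.0337 to 0.118, under the threshold only without wild type 3. Slc6a19 (B0AT1), the main apical carrier of neutral amino acids in the small intestine, had 2.21, 4.06 and 4.004 CPM in wild type and 5.31, 10.3 and 6.36 CPM in Lingo2-/- libraries. All 3 Lingo2-/- libraries were above all 3 wild type libraries, with Lingo2-/- 2 the highest, but the difference did not pass (1.06 ± 0.30, SE, edgeR adjusted p = 0.0962). It passed in the DESeq2 Wald test (adjusted p = 0.0139).

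Slc6a14 (ATB0,+), a carrier of neutral and cationic amino acids of the colon's apical membrane, stood at 475, 415 and 432 CPM in wild type and 519, 375 and 417 CPM in Lingo2-/- libraries. The genotypes overlapped (−0.01 ± 0.13, SE, edgeR adjusted p = 0.973). Slc6a8, the creatine carrier, had 255, 145 and 222 CPM in wild type and 204, 193 and 208 CPM in Lingo2-/- libraries, with wild type 2 the lowest (−0.04 ± 0.18, SE, edgeR adjusted p = 0.937). The taurine carrier Slc6a6 had 75.3, 89.2 and 81.4 CPM in wild type and 87.5, 76.9 and 72.9 CPM in Lingo2-/- libraries, which overlapped (−0.05 ± 0.10, SE, edgeR adjusted p = 0.831).

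The lower members of Slc6 did not pass either. The glycine carrier Slc6a9 stood at 5.94 ± 0.766 and 7.11 ± 0.525 CPM (SD, n = 3) in wild type and Lingo2-/- libraries (0.26 ± 0.16, SE, edgeR adjusted p = 0.416). The imino acid carrier Slc6a20a had 0.920, 1.01 and 1.75 CPM against 2.14, 2.99 and 1.39 CPM (0.82 ± 0.35, SE, edgeR adjusted p = 0.234). Its paralog Slc6a20b had 2.76, 2.57 and 2.47 CPM against 2.00, 2.12 and 1.85 CPM (−0.38 ± 0.22, SE, edgeR adjusted p = 0.386). The 2 paralogs thus lay on opposite sides of 0, and only Slc6a20b had groups that did not overlap. The serotonin carrier Slc6a4 lay at 0.48 ± 0.31 (SE, edgeR adjusted p = 0.445). Slc6a20a overlaps Ccr9, and Slc6a20b overlaps Sacm1l, on the opposite strand.

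The heavy chains of the heteromeric carriers differed in their values. Slc3a1 (rBAT), the partner of Slc7a9 in apical cystine uptake, stood at 43.4, 37.5 and 42.0 CPM in wild type and 33.0, 29.9 and 29.8 CPM in Lingo2-/- libraries. The genotypes did not overlap, and the log2 fold change of −0.40 ± 0.10 (SE) had an edgeR adjusted p of 0.0503, just outside the threshold. The adjusted p was 0.0415 with upper quartile factors, 0.0494 with a filter at 1 CPM in 3 libraries and 0.00474 with no filter. It was 0.0509 to 0.0776 under 5 other alternatives on all libraries, and 0.0533 to 0.157 with 1 library left out. Slc3a1 thus passed only with upper quartile factors, the 1 CPM filter and no filter, and did not pass with a replicate block. Slc3a2 (4F2hc), the partner of the basolateral exchangers, stood at 37.0, 29.2 and 31.5 CPM in wild type and 29.2, 33.9 and 34.6 CPM in Lingo2-/- libraries, with full overlap (0.00 ± 0.11, SE, edgeR adjusted p = 0.992). Slc3a1 overlaps Prepl on the opposite strand, which stood at 20.9 and 22.6 CPM (0.11, edgeR adjusted p = 0.604).

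No member of Slc7 passed the test, and 5 of its 10 members, Slc7a6os among them, had Lingo2-/- libraries all above wild type, as 12.3% of all tested genes did. The median log2 fold change of the family was 0.18. Slc7a7 (y+LAT1), which releases cationic amino acids to the blood, had 9.43, 10.3 and 10.1 CPM in wild type and 11.5, 15.6 and 13.4 CPM in Lingo2-/- libraries (0.43 ± 0.14, SE, edgeR adjusted p = 0.120). Slc7a8 (LAT2), a basolateral exchanger of neutral amino acids, had 2.30, 2.87 and 3.49 CPM against 3.86, 8.72 and 4.40 CPM, with Lingo2-/- 2 far above the rest (0.93 ± 0.30, SE, edgeR adjusted p = 0.136). Slc7a11 (xCT), which exchanges cystine for glutamate, had 2.62, 2.13 and 1.70 CPM against 2.69, 3.61 and 5.90 CPM (0.89 ± 0.30, SE, edgeR adjusted p = 0.139). In these 3 genes the genotypes did not overlap, though the nearest Slc7a11 libraries stood at 2.62 and 2.69 CPM.

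Slc7a6 (y+LAT2) had 10.5, 12.5 and 12.2 CPM in wild type and 12.9, 12.6 and 16.4 CPM in Lingo2-/- libraries (0.25 ± 0.14, SE, edgeR adjusted p = 0.368). Its neighbour Slc7a6os, which is not a carrier, had 10.4, 10.3 and 8.86 CPM against 14.1, 14.8 and 11.9 CPM (0.47 ± 0.13, SE, edgeR adjusted p = 0.0876). Slc7a9 (b0,+AT), the light chain of Slc3a1, had 4.92, 7.496 and 8.39 CPM against 5.58, 8.48 and 3.93 CPM (−0.23 ± 0.28, SE, edgeR adjusted p = 0.701). Slc7a5 (LAT1), a large neutral amino acid exchanger, and Slc7a1 (CAT1), a cationic amino acid carrier, overlapped between the genotypes. The means of Slc7a5 were 6.90 ± 0.632 and 6.29 ± 1.29 CPM, and those of Slc7a1 21.6 ± 0.601 and 21.0 ± 0.681 CPM (SD, n = 3), at log2 fold changes of −0.15 ± 0.18 and −0.04 ± 0.10 (SE, edgeR adjusted p = 0.682 and 0.859). Slc7a4 and Slc7a15 lay at −0.13 and 0.11.

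The ratio of a heavy chain to its light chains was also taken per kb of exon. Slc3a2 over the sum of its light chains was 1.36, 0.966 and 1.09 in wild type and 0.955, 0.832 and 0.930 in Lingo2-/- libraries, so each Lingo2-/- value was below each wild type value, with 0.955 next to 0.966. Slc3a1 over Slc7a9 was 10.4, 5.89 and 5.90 in wild type and 6.95, 4.16 and 8.94 in Lingo2-/- libraries, which overlapped.

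Slc36, Slc38 and Slc43 had 12 members and none passed. Slc38a9, the lysosomal arginine sensor that reports to mTORC1, came nearest, at 13.3, 15.6 and 14.5 CPM in wild type and 16.8, 25.9 and 22.6 CPM in Lingo2-/- libraries. The genotypes did not overlap (0.57 ± 0.15, SE, edgeR adjusted p = 0.0672), and the edgeR adjusted p ranged from 0.0107 (without Lingo2-/- 1) to 0.228 (without Lingo2-/- 2), under the threshold in 1 of 6 refits. Slc38a2 (SNAT2), a sodium-coupled carrier of small neutral amino acids, had 112, 118 and 115 CPM against 127, 117 and 129 CPM (0.11 ± 0.09, SE, edgeR adjusted p = 0.517). Slc38a10 had 74.3, 69.6 and 62.9 CPM against 57.6, 59.8 and 69.4 CPM (−0.15 ± 0.10, SE, edgeR adjusted p = 0.462).

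The Slc36 carriers Slc36a1 (PAT1) and Slc36a4 (PAT4) overlapped between the genotypes. Slc36a1 had 50.3, 28.2 and 33.0 CPM against 42.3, 29.9 and 32.5 CPM, with the first replicate of each genotype the highest (−0.08 ± 0.24, SE, edgeR adjusted p = 0.899). Slc36a4 had 16.9 ± 2.00 and 15.5 ± 1.19 CPM (SD, n = 3; −0.13 ± 0.12, SE, edgeR adjusted p = 0.614). Of the Slc43 uniporters of large neutral amino acids, Slc43a1 had 5.11, 5.07 and 4.60 CPM in wild type and 5.52, 5.73 and 6.13 CPM in Lingo2-/- libraries (0.23 ± 0.16, SE, edgeR adjusted p = 0.482). Slc43a2 had 12.0, 16.4 and 13.5 CPM against 15.1, 25.3 and 14.1 CPM, with Lingo2-/- 2 the highest. It lay at 0.36 ± 0.22, and Slc43a3, which is known as a purine base carrier, at −0.52 ± 0.24 (SE, edgeR adjusted p = 0.427 and 0.270). The remaining Slc38 members, Slc38a1, Slc38a6, Slc38a7 and Slc38a11, lay between −0.26 and 0.08 with edgeR adjusted p-values of 0.408 to 0.734.

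Dependence on single libraries was checked by refitting all genes without each of the 6 in turn. Slc15a2 passed in 4 of the 6 refits, Slc1a5 in 3, Slc1a4 in 2 and Slc6a7 in 1, and the direction of each of these 4 held in all 6.

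**Figure D3:**
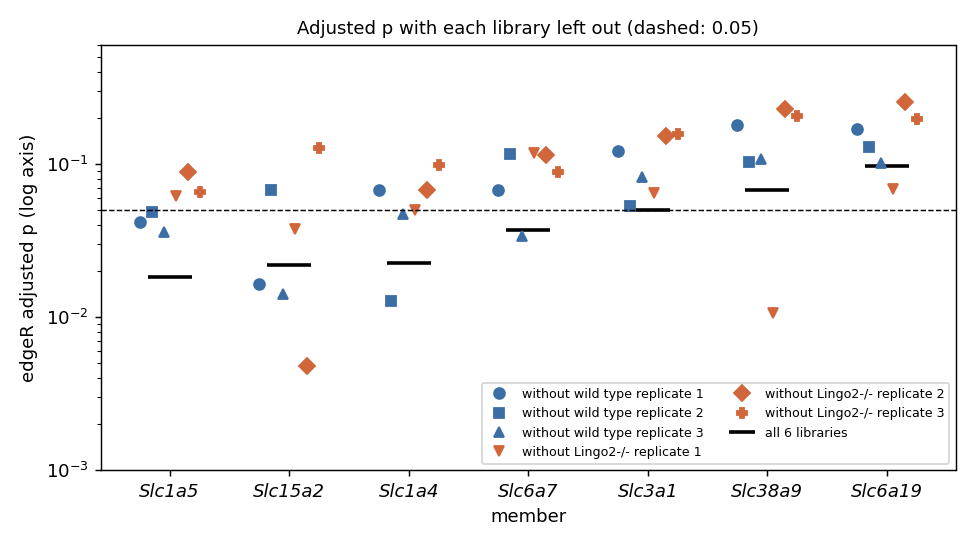
edgeR adjusted p (vertical, log axis) of 7 carriers with all 6 libraries (black line) and with each library left out in turn (symbols), against the threshold of 0.05 (dashed). Slc15a2 stays under it in 4 of 6 cases, Slc1a5 in 3, Slc1a4 in 2, Slc6a7 and Slc38a9 in 1 and Slc3a1 and Slc6a19 in 0.

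Levels were compared between carriers per kb of merged exons. In wild type libraries Slc6a14 was the highest at 128 ± 8.88 CPM per kb (SD, n = 3) and held 37.8% of the summed level of the 40 carriers. Slc6a8 followed at 39.8 ± 10.8, Slc15a1 at 31.5 ± 16.3 and Slc1a5 at 25.8 ± 0.227 CPM per kb, and the ranges of these neighbours overlapped. Slc3a1 at 18.0 ± 1.37 and Slc38a2 at 13.0 ± 0.331 CPM per kb were each apart from their neighbours, whereas Slc38a10, Slc6a6, Slc3a2, Slc36a1 and Slc1a4, at 10.7 to 5.54 CPM per kb, formed a run in which neighbours overlapped. Slc1a4 did not overlap Slc15a4, the next below it. Slc15a2 ranked 14 of 40 in wild type at 2.76 ± 0.762 CPM per kb and 37 in Lingo2-/- libraries at 0.234 ± 0.169 CPM per kb. Slc1a5 ranked 4 and 3. Slc6a19 ranked 32 and 24, so the main apical neutral carrier of the small intestine was a minor transcript in both genotypes.

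**Figure D4:**
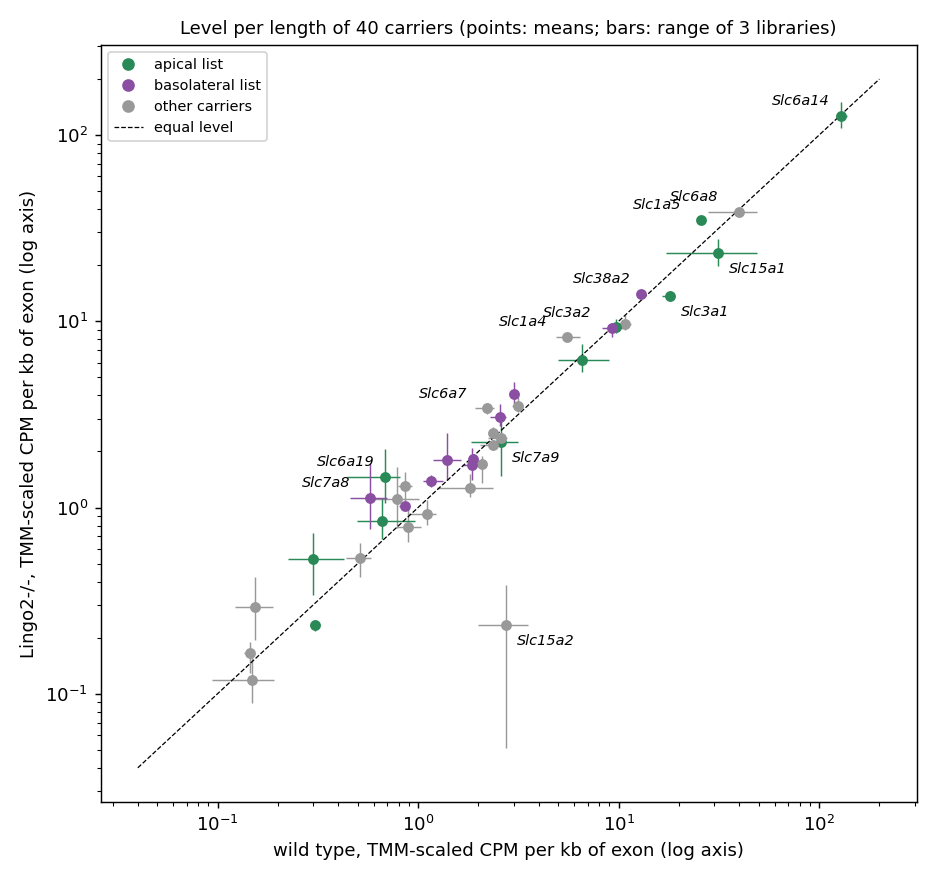
Mean level of 40 carriers in CPM per kb of exon in wild type (horizontal, log axis) and Lingo2-/- libraries (vertical, log axis), with bars for the range of 3 libraries and colours for the apical and basolateral lists. Most carriers lie along the line of equal level, with Slc15a2 far below it at 2.76 against 0.234 CPM per kb.

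Summed by family, the Slc1 level was 32.3 ± 0.858 CPM per kb (SD, n = 3) in wild type and 44.3 ± 0.219 in Lingo2-/- libraries. The Slc6 sum was 183 ± 18.4 and 184 ± 22.3, that of Slc7 17.8 ± 0.735 and 20.2 ± 2.19, that of Slc3 27.3 ± 2.42 and 22.8 ± 0.0913, and that of Slc15 37.4 ± 15.6 and 27.1 ± 3.89 CPM per kb. Slc15a1 made up most of the Slc15 sum, and it spread widely between wild type libraries. Between libraries of 1 genotype the carriers spread about as all genes did. The median ratio of the highest to the lowest library was 1.26 in wild type and 1.36 in Lingo2-/- libraries for carriers, and 1.24 and 1.28 for all tested genes. The ratio exceeded 2-fold for 2 of 40 carriers in wild type and 6 of 40 in Lingo2-/- libraries, led by Slc15a1 (2.87) and Slc15a2 (7.56), where 8.75% and 12.9% of all tested genes exceeded it.

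Apical and basolateral carriers were compared as lists. Of 11 apical carriers, 1 rose, Slc1a5, none fell, and the median log2 fold change was −0.05. Slc15a2, the 1 member that fell, is in neither list, so the lack of a fall depends on how the lists were drawn. The summed level of the apical list was 253.7, 200.8 and 219.0 CPM per kb in wild type. It was 246.0, 199.2 and 214.9 CPM per kb in Lingo2-/- libraries, which overlapped. Slc6a14 alone made up 54.5% to 61.4% of it. Of 10 basolateral carriers none passed, 7 lay above 0, and the median was 0.24. Among all tested genes 50.1% lay above 0. The basolateral sum was 35.7, 35.8 and 35.0 CPM per kb in wild type and 36.9, 40.8 and 40.1 CPM per kb in Lingo2-/- libraries. Each Lingo2-/- library was thus above each wild type library, though the nearest stood at 35.8 and 36.9. The apical sum over the basolateral sum was 7.11, 5.61 and 6.25 in wild type and 6.67, 4.88 and 5.36 in Lingo2-/- libraries, which overlapped. Slc16a10 (TAT1), a basolateral carrier of aromatic amino acids outside these families, stood at 3.99 ± 0.601 and 4.63 ± 0.740 CPM (SD, n = 3, log2 fold change 0.20 ± 0.20, SE, edgeR adjusted p = 0.632).

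**Figure D5:**
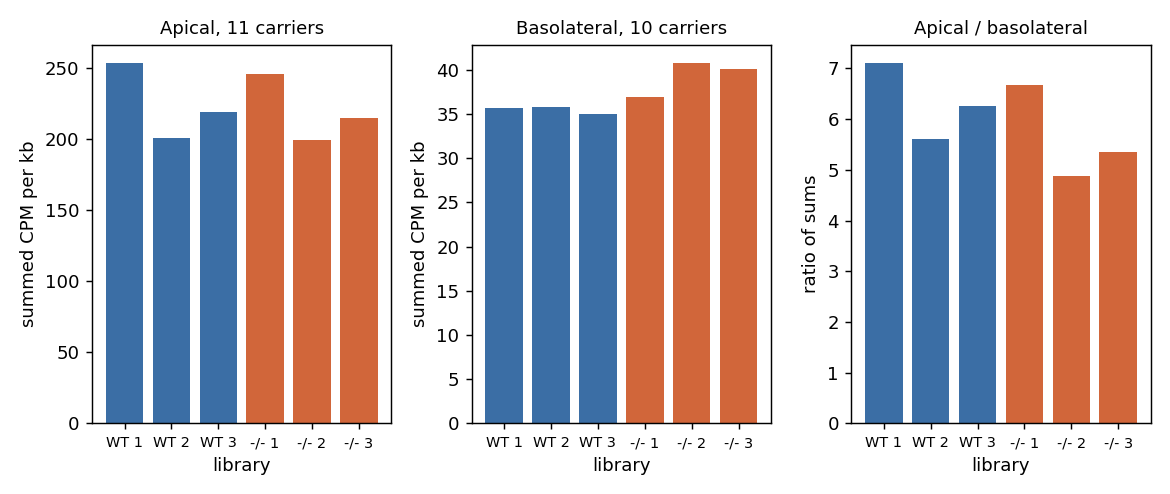
Summed CPM per kb of 11 apical carriers, of 10 basolateral carriers, and the ratio of these sums (vertical axes from 0), 1 bar per library, with wild type in blue and Lingo2-/- in orange. The apical sums and the ratios overlap between genotypes, whereas the basolateral sums run from 35.0 to 35.8 in wild type and 36.9 to 40.8 in Lingo2-/- libraries.

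Genes that act before, beside and after the carriers were described from fixed lists. Of 17 tested membrane and cytosolic peptidases 2 fell and none rose, with a list median of 0.07. Naaladl1, a peptidase of the ileal brush border, had 53.4, 65.2 and 58.8 CPM in wild type and 36.5, 26.4 and 24.5 CPM in Lingo2-/- libraries, without overlap (−1.01 ± 0.14, SE, edgeR adjusted p = 0.00458). Mep1a, the alpha subunit of the brush border protease meprin, had 416, 288 and 374 CPM against 235, 221 and 238 CPM, without overlap (−0.63 ± 0.13, SE, edgeR adjusted p = 0.0277). None of 7 tested partners and ion-gradient genes passed, and Cltrn, a partner of Slc6a19, is listed at 0 in all libraries.

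The lists of amino acid shortage and sensing held no gene past the test. Of 18 tested genes of the amino acid starvation response none passed (median 0.05), and the smallest p was that of Eif2ak4, the kinase GCN2 (0.25 ± 0.10, SE, edgeR adjusted p = 0.224). Of 17 tested genes of amino acid sensing to mTORC1 none passed (median −0.01), and the smallest p was that of Rragd (0.82 ± 0.35, SE, edgeR adjusted p = 0.234). Of 11 tested amino acid carriers of other families none passed (median 0.06), with Slc25a29, a mitochondrial carrier of basic amino acids, having the smallest p (0.66 ± 0.24, SE, edgeR adjusted p = 0.162).

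Markers of several other cell types differed between the genotypes. In these bulk samples, fewer cells of a type and less RNA per cell cannot be told apart. Of 16 markers of T cells and intraepithelial lymphocytes 15 fell, and their sum was 492 to 585 CPM in wild type and 208 to 241 CPM in Lingo2-/- libraries, with no marker at 0. Those with the smallest p were Cd7 (−2.08), Cd3g (−1.99), Nkg7 (−1.84) and Itgae (−1.17, log2 fold changes). Of 12 goblet cell markers 4 rose, Spdef (0.84), Atoh1 (0.90), Spink4 (1.01) and Foxa3 (0.59), with sums of 13725 to 16610 and 17159 to 24687 CPM. The other 8 did not pass. Goblet markers ranged from −0.42 to 2.90 with a median of 0.78, with 10 above 0 and 2 below. Of 11 markers of macrophages and dendritic cells 2 fell, Itgax (−0.99) and Tyrobp (−1.11), with overlapping sums of 94.8 to 111 and 75.3 to 136 CPM. In that list 4 markers lay above 0 and 7 below, with a median of −0.11. The 9 markers of enteric neurons and glia summed to 3.73 to 4.46 and 3.86 to 5.72 CPM, and 8 of the 9 were under 1 CPM in every library, with the smallest p for S100b (0.55, edgeR adjusted p = 0.609). Of 8 tested markers of endothelium and erythrocytes 1 rose, the endothelial gene Vwf (0.96, edgeR adjusted p = 0.0169), while the other 7 lay below 0 and 4 globin genes were below wild type without overlap but did not pass. Those markers summed to 389 to 637 and 232 to 382 CPM. Of 10 markers of fibroblasts and smooth muscle none passed, with 9 below 0, a median of −0.76 and overlapping sums of 340 to 983 and 233 to 508 CPM (smallest p for Pdgfra, −1.31, edgeR adjusted p = 0.227). Of 8 markers of B and plasma cells none passed, with sums of 121 to 138 and 133 to 160 CPM (smallest p for Jchain, 0.86, edgeR adjusted p = 0.125). Of 15 small intestine markers 1 passed, Apoc3 (2.13), while 13 of the 15 lay above 0, with a median of 0.99. Lingo2-/- libraries were all above wild type for 6 of the 15 and all below for 1. Among all tested genes these shares were 12.3% and 11.8%. The sums of 395 to 481 and 436 to 732 CPM overlapped. They were highest in Lingo2-/- 2, which was also the highest library for Slc6a19 and Slc7a8. Of 10 surface colonocyte markers none passed, with 9 below 0 and a median of −0.30 (smallest p for Cyp2c55, −0.50, edgeR adjusted p = 0.123). Their sums of 7992 to 9268 and 5848 to 7884 CPM did not overlap. The part of these cells in the fall of Slc15a2 or the rise of Slc1a5, Slc1a4 and Slc6a7 was not tested.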

How the data were processed

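Counts were tested from the deposited table of raw read counts per gene, whole numbers made by the authors with Trimmomatic 0.39, STAR and HTSeq on GRCm38, per the submitters' processing notes. The sources used here do not state the annotation release or the strand setting. The 5 summary lines that name no gene entered neither library sizes nor tests. Reads in no feature were 18.5% to 22.1% (wild type) and 23.6% to 27.6% (Lingo2-/-) of the table. The authors' deposited DESeq2 comparison gave the member names. Its normalized signal is the count multiplied by a single factor for each library, in 100% of values (relative tolerance 1e-06), and from its log2 fold changes, test score and p-value columns, per the file headers, only the adjusted p-value was used for calls.

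The tool was edgeR 4.0.16 in R 4.3.3 (filterByExpr, TMM, robust quasi-likelihood F test on genotype, 6 libraries), with Benjamini-Hochberg adjustment over 16757 genes and a threshold of 0.05. The standard error is the log2 fold change over the square root of F. Exon lengths and positions came from GENCODE M21 (GRCm38). Counts simulated for this comparison over 16393 genes gave back 70% of 100 genes changed 2-fold and 96% of 100 changed 4-fold, with 6 false calls of 172. The changed genes were drawn only from those above a minimum of expected reads in the shallowest library. Changes smaller than 2-fold, as most members had, were not simulated. Replicates differed by more than sampling noise (chi-square per degree of freedom 8.40 to 19.4).

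The members and 26 gene lists were chosen with earlier results of these data known. Named genes were every called member, every tested Slc15 and Slc3 member, the 2 highest per length of each other family, all apical and basolateral carriers, and of each other list up to 4 called genes or the gene with the smallest p. A gene that this rule takes is not reported here. Members outside this rule, and neighbours and overlapping genes, were named after their values were seen. Alternatives were upper quartile factors, DESeq2 size factors, no filter, 1 CPM in 3 libraries, the DESeq2 1.42.0 Wald test, limma 3.58.1 voom with sample weights, dispersions that are not robust, leaving out mitochondrial, haemoglobin and immunoglobulin genes, a replicate block, and each library left out.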

Additional observations from a re-analysis of the deposited data

How the results depend on the processing

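The count of 4 changed members was 4 to 6 under 7 alternatives, and 10 with no filter and 2 with the replicate block (Slc1a4 and Slc6a19). It ranged from 0 to 4 with 1 library left out, being 2, 2 and 4 without wild type 1, 2 and 3 and 2, 1 and 0 without Lingo2-/- 1, 2 and 3. Over all genes the count of 430 was 1493 with no filter, 655 in the DESeq2 Wald test and 174 to 674 with 1 library left out. Under the block the edgeR adjusted p was 0.0507 for Slc15a2, 0.0650 for Slc1a5, 0.0680 for Slc6a7 and 0.0269 for Slc6a19, and 360 genes passed. Deviations of same-numbered libraries had r = −0.126, 0.128 and −0.0220 across genes, within the −0.156 to 0.187 of pairs with unlike numbers. Correlations this small do not settle whether same-numbered libraries were paired, and the labels do not say. Of 615 alternative values of single members, 570 kept direction and side of the threshold, 17 lost and 12 gained the call, and 16 changed sign, in 7 genes whose edgeR adjusted p with all libraries was 0.646 or more. In limma voom Slc3a2 was at 0.033, Slc36a1 at 0.022 and Slc6a8 at 0.075. With 1 library left out the ranges that crossed 0 were Slc15a1 −0.73 to 0.045, Slc3a2 −0.079 to 0.10, Slc36a1 −0.25 to 0.20, Slc6a14 −0.16 to 0.077, Slc6a6 −0.14 to 0.014, Slc6a8 −0.24 to 0.14 and Slc7a15 −0.084 to 0.23. The cause was not tested. The shallower Lingo2-/- libraries limit low members such as Slc15a2, Slc6a20a and Slc7a11.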
